A study of Mus musculus with 4 samples.

Results

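Complement is a set of plasma and cell surface proteins that mark targets for uptake and recruit leukocytes, and macrophages make a part of it themselves. The transcripts of 9 complement genes that macrophages make were followed here, chosen by name for their roles: the recognition chains C1qa, C1qb and C1qc, the central component C3, the alternative pathway genes Cfb and Cfp, and the anaphylatoxin receptors C3ar1, C5ar1 and C5ar2. All 9 were found in the table of 21878 genes, and all 9 passed edgeR's filter on low counts, as did 12494 genes in all. The macrophages were grown from bone marrow of C57BL/6 mice with M-CSF and kept for the experiment across a porous insert from MC38, a colon cancer line of the mouse. There were 2 libraries labelled WT (wild type) and 2 labelled anti-Act1, from mice with a macrophage-specific knockdown of Act1, an adaptor protein of IL-17 receptor signalling that is encoded by Traf3ip2. All 4 libraries share the coculture, for which the labels give 48 h and the study's text a shorter time, and an age of 8 weeks by the labels, where the study's text gives a range of weeks. The construct and promoter behind the knockdown, and whether marrow was pooled, are not given in the sources used here. No library without tumour cells was analysed here, so the comparison asks how the groups differ under coculture, not what coculture does.

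The labels were checked first. Traf3ip2 stood at 6.98 and 7.54 CPM (counts divided by the TMM-adjusted library size) under the WT label and 9.63 and 7.84 CPM under the anti-Act1 label (a log2 difference of 0.27, edgeR adjusted p = 0.117). The targeted transcript was thus not lower under the anti-Act1 label in these libraries, and every direction below rests on the labels. In separate experiments, the study reports reduced Act1 expression in bone marrow-derived macrophages of anti-Act1 mice. The Y-linked gene Ddx3y was at 88.9 and 97.0 CPM under the WT label and had 0 counts in either anti-Act1 library, so the sex of the mice and the label cannot be told apart. Total counts were 55435063 to 75062945 per library, and a count of 0 allows up to 3 counts, which is 0.0395 to 0.0549 CPM. All 10 macrophage markers were present, with sums of 25569 to 27159 CPM and overlapping groups. Summed markers of neutrophils, dendritic cells, fibroblasts, epithelial tumour cells and B cells each stayed under 8 CPM in every library, and Krt8, Krt18, Krt20 and Cldn4 were at 0 throughout. T cell markers summed to 25.8 to 31.4 CPM, nearly all of it Cd4, with Cd3e at 0.0791 CPM or less, and mast cell and basophil markers to 0.311 CPM or less.

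Complement has 3 entry routes that meet at C3. In the classical route, C1q, a hexamer built from A, B and C chains, binds antibody, pentraxins or dying cells. It activates the proteases C1r and C1s, of which C1s cleaves C4 and C2. In the alternative route, factor B (Cfb) pairs with C3b to form a convertase that properdin (Cfp) holds together. Cleavage releases the small peptides C3a and C5a, which are sensed on myeloid cells by C3ar1, C5ar1 and C5ar2. Most complement proteins of plasma come from the liver, whereas macrophages and other myeloid cells are known as the main source of C1q and a source of properdin.

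The C1q chains and the C5a receptors were lower under the anti-Act1 label, where C5ar1 fell by 21.3% and C1qa, at the other end, fell by 27.5%, and C3 was 1.95-fold higher. Of the 9 genes, 1 (C3) rose, 6 (C1qa, C1qb, C1qc, Cfb, C5ar1, C5ar2) fell, and Cfp and C3ar1 did not pass an adjusted p of 0.05 in edgeR's quasi-likelihood test. Over all genes tested 20.7% were called, 10.9% higher and 9.76% lower. The groups did not overlap for 7 of the 9 genes, and did not overlap for 57.1% of all genes tested. The median log2 fold change was -0.35 over the 9 genes and -0.0046 over all genes tested. The p-values are 2-sided and come from the model across genes. For a single gene, an exact permutation test with 2 libraries against 2 cannot go below 0.333.

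**Figure D1:**
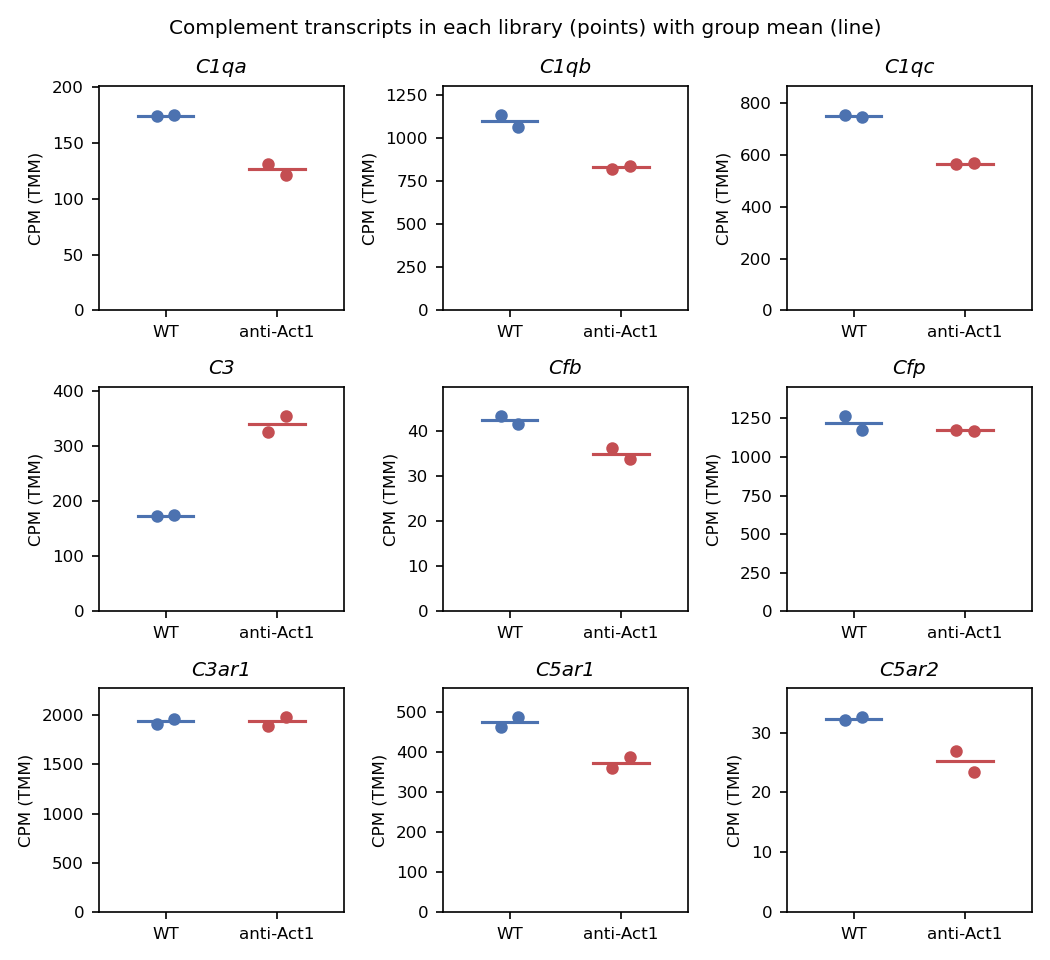
Expression of the 9 complement genes in CPM (vertical axis, starting at 0, linear) in each library (points), with the group mean as a line, for the libraries labelled WT (blue) and anti-Act1 (red). The groups are apart for 7 genes, with C3 alone higher under the anti-Act1 label, and overlap for Cfp and C3ar1.

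The promoters of the genes that changed are shown first, because the C1q chains moved together, and so did C5ar1 and C5ar2. RefSeq (GRCm38.p6) gave a window from 250 bases before to 50 bases after the transcript start for 7 of the 9 genes. The windows of C1qb, C1qc, C3, C5ar1 and C5ar2, the called genes that have one, are printed 5′ to 3′ on the minus strand, where all of them lie. Capitals mark matches to 5 motifs searched on both strands: GAS (TTCNNNGAA, bound by STAT factors), an IRF core (GAAANNGAA), AP-1 (TGANTCA), C/EBP (TTGCNNAA) and the κB motif. These motifs were chosen after the sequences were seen, and a match is a run of letters, not a shown binding site. The windows lie at chr4:136886151-136886450 for C1qb, chr4:136892865-136893164 for C1qc, chr17:57228087-57228386 for C3, chr7:16259289-16259588 for C5ar1 and chr7:16244105-16244404 for C5ar2.
C1qb: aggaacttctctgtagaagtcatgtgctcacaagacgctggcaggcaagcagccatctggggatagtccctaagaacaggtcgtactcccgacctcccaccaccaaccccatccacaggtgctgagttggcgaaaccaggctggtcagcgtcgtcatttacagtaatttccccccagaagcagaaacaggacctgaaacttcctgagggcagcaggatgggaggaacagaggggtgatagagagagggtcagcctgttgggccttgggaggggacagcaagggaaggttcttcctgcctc
C1qc: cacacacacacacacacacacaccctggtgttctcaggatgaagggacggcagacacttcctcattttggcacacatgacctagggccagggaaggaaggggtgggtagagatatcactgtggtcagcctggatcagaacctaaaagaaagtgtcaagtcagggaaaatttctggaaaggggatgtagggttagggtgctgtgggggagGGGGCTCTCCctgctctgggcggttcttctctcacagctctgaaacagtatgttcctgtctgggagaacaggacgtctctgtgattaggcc
C3: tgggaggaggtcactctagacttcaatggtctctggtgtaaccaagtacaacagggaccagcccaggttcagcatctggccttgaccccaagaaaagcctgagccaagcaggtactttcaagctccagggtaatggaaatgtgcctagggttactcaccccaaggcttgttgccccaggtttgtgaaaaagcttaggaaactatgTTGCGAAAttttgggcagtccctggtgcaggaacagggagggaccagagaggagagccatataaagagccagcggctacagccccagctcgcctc
C5ar1: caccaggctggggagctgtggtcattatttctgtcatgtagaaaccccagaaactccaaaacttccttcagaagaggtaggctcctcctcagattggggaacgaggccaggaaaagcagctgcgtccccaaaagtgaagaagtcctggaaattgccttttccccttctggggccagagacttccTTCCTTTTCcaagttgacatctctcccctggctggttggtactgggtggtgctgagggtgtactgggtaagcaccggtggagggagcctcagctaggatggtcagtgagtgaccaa
C5ar2: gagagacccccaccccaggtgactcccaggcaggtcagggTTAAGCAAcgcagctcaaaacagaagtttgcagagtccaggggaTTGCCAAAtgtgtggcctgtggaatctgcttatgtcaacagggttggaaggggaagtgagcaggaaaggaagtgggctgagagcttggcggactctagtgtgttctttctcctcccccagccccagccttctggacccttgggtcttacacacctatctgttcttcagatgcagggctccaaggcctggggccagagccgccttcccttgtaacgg

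C1qb and C1qc shared no motif match in these windows, and neither did C5ar1 and C5ar2, while C1qa had no window. The windows of C1qc and C5ar1 sit at a transcript start that is not the gene start in RefSeq. Those of C1qb and C5ar2 sit at the gene start, so each pair was compared at unlike starts. C1qc held a κB match at -41 to -32 from the start and C1qb held no match to any of the 5 motifs. C3 held a C/EBP match at -45 to -38. C5ar2 held 2 C/EBP matches, at -210 to -203 and -166 to -159, in the window shown, and none in its second window. In C5ar1 an IRF core match lay at -66 to -58 on the opposite strand. Of 32544 windows of this length, 8.33% held a GAS match, 8.53% an IRF core, 7.79% AP-1, 8.49% κB and 10.8% C/EBP, so such matches are frequent. The window of C3ar1, which was not called, held an AP-1 match at -22 to -16, and that of Cfp held none.

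C1qa, C1qb and C1qc encode the A, B and C chains of C1q, and all 3 fell. They stand side by side on chromosome 4 in the order C1qb, C1qc, C1qa, between Ephb2 and Epha8. C1qa was at 174 and 175 CPM under the WT label and 131 and 122 CPM under the anti-Act1 label. C1qb was at 1135 and 1064 CPM against 824 and 840 CPM. C1qc was at 752 and 744 CPM against 565 and 566 CPM. In each case both libraries labelled anti-Act1 were below both labelled WT, and the gap was several times the distance between replicates. The log2 fold change of C1qa was -0.46 (SE 0.05, 95% interval -0.57 to -0.36, edgeR adjusted p = 1.60e-09). That of C1qb was -0.40 (SE 0.05, 95% interval -0.50 to -0.30, edgeR adjusted p = 1.58e-08), and that of C1qc was also -0.40 (SE 0.05, 95% interval -0.50 to -0.30, edgeR adjusted p = 1.01e-08). In percent of the WT level, C1qa fell by 27.5%, C1qb fell by 24.3% and C1qc fell by 24.4%, with 95% intervals that overlap. In bulk RNA, fewer cells of a type and less RNA per cell cannot be told apart, and this holds for every gene below.

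Because the table holds gene lengths through its FPKM values (counts scaled to gene length and to the library total), the chains can be set against each other. Added up, the 3 chains came to 1971 and 1905 FPKM under the WT label and 1441 and 1431 FPKM under the anti-Act1 label. C1qb made up 54.6% and 53.1% of that sum under the WT label and 53.7% and 54.5% under the anti-Act1 label. C1qc made up 37.2% and 38.3% against 37.9% and 37.8%, and C1qa 8.20% and 8.57% against 8.38% and 7.73%. The groups overlap for every share, so the sum was lower while no difference in its make-up could be seen beyond the spread of 2 libraries. On the FPKM scale C1qa was thereby the lowest of the 3 chains. C1qb over C1qa stood at 6.65 and 6.20 under the WT label and 6.41 and 7.04 under the anti-Act1 label. The part of gene models and read assignment in this ratio was not tested.

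**Figure D2:**
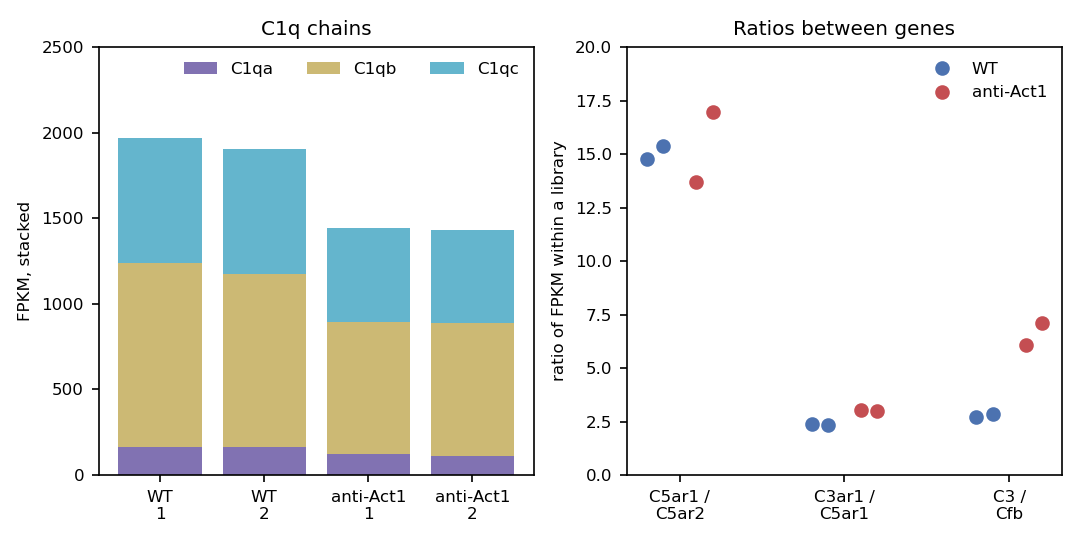
Left, FPKM of C1qa, C1qb and C1qc stacked for each library (axis from 0): the stack is lower in both libraries labelled anti-Act1, and its proportions are alike. Right, ratios of FPKM within each library (axis from 0) for C5ar1 over C5ar2, C3ar1 over C5ar1 and C3 over Cfb, with the WT label in blue and the anti-Act1 label in red, and only the first of the 3 ratios has overlapping groups.

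Macrophage markers did not move as a block with the C1q chains. Of the 10 markers, Mrc1, the mannose receptor (-0.63 on the log2 scale, edgeR adjusted p = 5.57e-14), Mertk, a receptor for dying cells (-0.40, edgeR adjusted p = 4.09e-08), and Itgam, the CR3 chain CD11b (-0.31, edgeR adjusted p = 3.96e-06), fell. Cd14, a receptor for lipopolysaccharide (0.16, edgeR adjusted p = 0.0113), rose. Adgre1, Csf1r, Cd68, Fcgr1 and Lyz2 were not called, with log2 fold changes of -0.11 to 0.10. The part of these markers in the C1q values was not tested.

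C3 is the component on which all routes converge, and its transcript rose. It was at 173 and 175 CPM under the WT label and 326 and 354 CPM under the anti-Act1 label. Both libraries labelled anti-Act1 were far above both labelled WT, whose values were almost equal. The log2 fold change was 0.97 (SE 0.05, 95% interval 0.86 to 1.07, edgeR adjusted p = 6.04e-20), a 1.95-fold difference. Among 8406 genes with a mean of at least 10 CPM, 30 had a log2 fold change at least as high, C3 included. Per length, C3 rose from 43.9 ± 0.430 FPKM (SD, n = 2) to 84.2 ± 4.29 FPKM (SD, n = 2). It thus went from 4.05% and 4.36% of the C1qb level to 10.5% and 11.2% of it. It also went from 9.77% and 9.59% of the level of its own receptor gene C3ar1 to 18.5% and 19.3%.

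Cfb encodes factor B, the partner of C3b in the alternative convertase, and it moved the other way from C3. It was at 43.2 and 41.5 CPM under the WT label and 36.1 and 33.6 CPM under the anti-Act1 label, with no overlap. On the log2 scale the difference was -0.28 (SE 0.07, 95% interval -0.41 to -0.15, edgeR adjusted p = 0.00109), so that it fell by 17.5%, the least of the 6. This call rests on anti-Act1 replicate 2, without which the log2 difference was -0.23 and the edgeR adjusted p was 0.0695. On the FPKM scale C3 stood at 2.70 and 2.84 times Cfb under the WT label and 6.07 and 7.10 times Cfb under the anti-Act1 label. Cfb lies on chromosome 17 between Nelfe and C2, and in GENCODE M21 a same-strand protein-coding gene, Gm20547, overlaps the exons of both Cfb and C2 and has no line in the count table. How reads on these shared exons were assigned is not given in the sources used here, so the values of Cfb and C2 are uncertain to that extent.

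Cfp encodes properdin, which stabilizes the alternative convertase. It was at 1263 and 1173 CPM under the WT label and 1174 and 1171 CPM under the anti-Act1 label. The groups overlap, and WT replicate 1 alone stands above the other 3. The difference of -0.06 on the log2 scale (SE 0.05, edgeR adjusted p = 0.501) has a 95% interval of -10.3% to 3.23% in percent of the WT level, so a fall as large as that of the C1q chains lies outside it. Cfp is on the X chromosome, and the groups also differ in Y-linked transcripts, as given above. Properdin is known from neutrophils too. Their 10 markers summed to 6.70 to 7.71 CPM, S100a8 rose, and S100a9, Retnlg, Ngp and Ltf fell among the 7 tested, while Ly6g was at 0.0774 CPM or less. The part of neutrophils in the Cfp value was not tested.

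**Figure D3:**
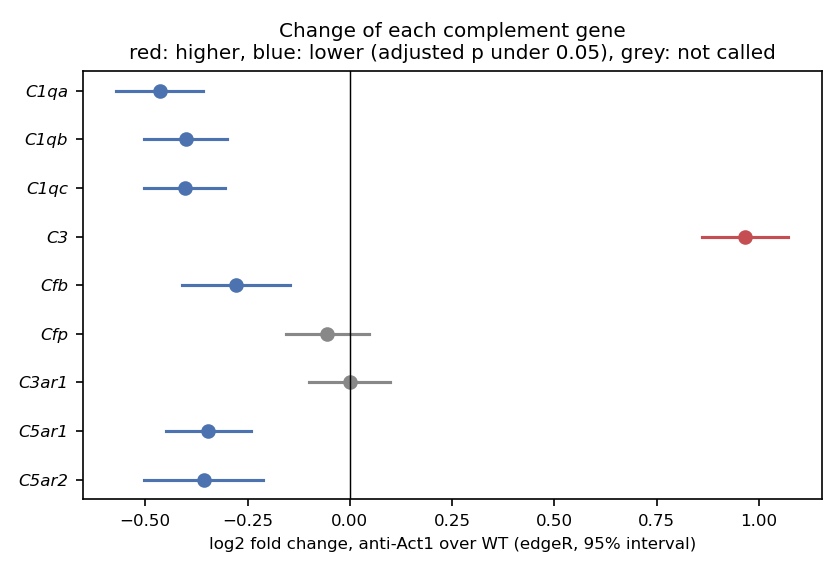
Log2 fold change of each of the 9 genes, anti-Act1 label over WT label, from edgeR (points) with its 95% interval (lines), and 0 as a vertical line. C3 lies at 0.97, the 6 called lower genes lie between -0.46 and -0.28, and the intervals of Cfp and C3ar1 include 0.

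C3ar1 encodes the receptor for C3a, and of the 9 genes it was the one nearest to no difference. It was at 1904 and 1959 CPM under the WT label and 1889 and 1973 CPM under the anti-Act1 label, so that the second pair encloses the first. Its log2 difference was -0.00050 (SE 0.05, edgeR adjusted p = 0.996), and its sign turned under several alternatives. In percent of the WT level, the 95% interval runs from -6.67% to 7.07%.

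C5ar1 encodes the main signalling receptor for C5a, a G protein-coupled receptor that draws myeloid cells to sites of complement activation. C5ar1 was at 463 and 488 CPM under the WT label and 361 and 387 CPM under the anti-Act1 label. C5ar2, a second C5a receptor that does not couple to G proteins, was at 32.1 and 32.5 CPM against 27.0 and 23.4 CPM. Both fell, with no overlap between groups. For C5ar1 the log2 fold change was -0.35 (SE 0.05, 95% interval -0.45 to -0.24, edgeR adjusted p = 8.36e-07). For C5ar2 it was -0.36 (SE 0.07, 95% interval -0.50 to -0.21, edgeR adjusted p = 0.000169), and this call was lost with unfiltered limma on log2(FPKM + 1) (adjusted p = 0.0713). The 2 genes lie next to each other on chromosome 7, between Dhx34 and Ccdc9. Exons of C5ar2 overlap Gm26473, a small nuclear RNA gene of the same strand with no line in the count table, so reads there could belong to either.

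The receptors kept unequal levels. On the FPKM scale C5ar1 was at 14.8 and 15.4 times C5ar2 under the WT label and 13.7 and 17.0 times C5ar2 under the anti-Act1 label, with overlapping groups. C3ar1 was at 2.40 and 2.35 times C5ar1 under the WT label and 3.06 and 2.97 times C5ar1 under the anti-Act1 label, without overlap. Of the anaphylatoxin receptor transcripts, those for C5a were thus lower under the anti-Act1 label and that for C3a was not called.

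By level per length, C1qb led the 9 genes in every library. Its mean was 1044 ± 44.2 FPKM (SD, n = 2) under the WT label and 777 ± 3.77 FPKM (SD, n = 2) under the anti-Act1 label, which put it at rank 46 of 21876 genes by mean FPKM over all libraries. Cfp (751 ± 36.6 FPKM and 710 ± 7.57 FPKM, SD, n = 2 each) and C1qc (732 ± 3.06 FPKM and 543 ± 3.72 FPKM, SD, n = 2 each) followed, and they changed places in WT replicate 2, so under the WT label these neighbours do not differ beyond their spread. Under the anti-Act1 label Cfp stood above C1qc in both libraries. C3ar1 came next at 453 ± 10.5 FPKM and 445 ± 9.80 FPKM (SD, n = 2 each), then C5ar1 at 191 ± 7.71 FPKM and 148 ± 6.24 FPKM (SD, n = 2 each) and C1qa at 162 ± 1.17 FPKM and 116 ± 7.10 FPKM (SD, n = 2 each). C3, Cfb (15.8 ± 0.407 FPKM and 12.8 ± 0.758 FPKM, SD, n = 2 each) and C5ar2 (12.7 ± 0.165 FPKM and 9.71 ± 1.06 FPKM, SD, n = 2 each) closed the order in all libraries. Cfb and C5ar2 did not overlap under the WT label, with the lowest Cfb value above the highest of C5ar2 under the anti-Act1 label as well. The rise of C3 did not move it past C1qa. All 9 genes took 0.598% and 0.592% of all counts under the WT label and 0.532% and 0.539% under the anti-Act1 label.

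Among the 8406 genes with a mean of at least 10 CPM, which were not matched on abundance, 90 had a log2 fold change at or below that of C1qa, 141 at or below C1qc, 146 at or below C1qb, 200 at or below C5ar2, 222 at or below C5ar1 and 378 at or below Cfb, the gene itself included each time. The change of C3 was larger in size than that of any of the 6 that fell, and it was the only one of the 9 to go up.

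**Figure D4:**
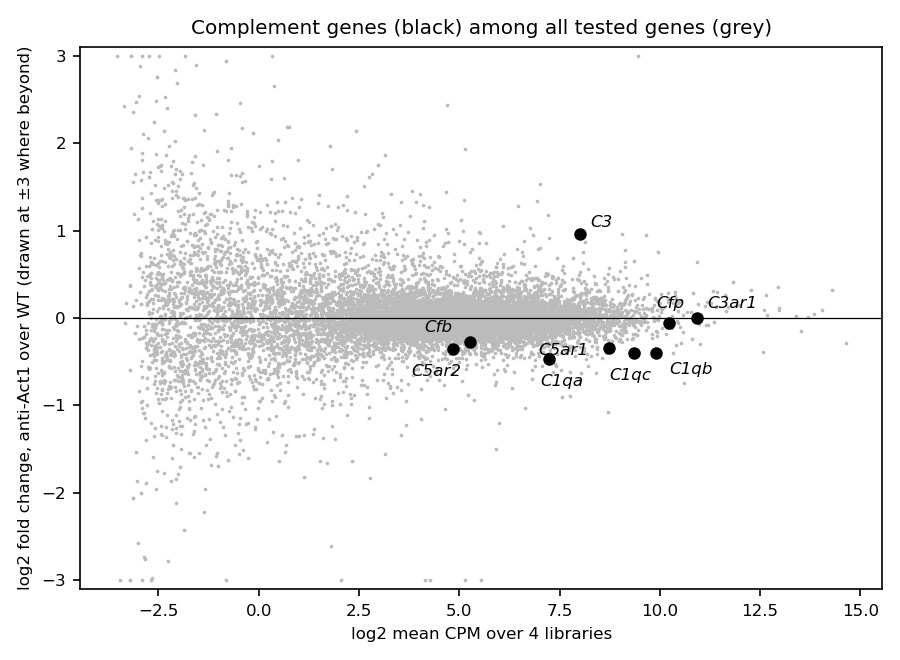
Log2 fold change, anti-Act1 label over WT label (vertical axis, drawn at ±3 where beyond), against log2 mean CPM over 4 libraries (horizontal axis) for all genes tested (grey) and the 9 complement genes (black, named). C3 stands above most grey points of its abundance, C1qa, C1qb, C1qc, C5ar1, C5ar2 and Cfb lie along the lower side of the grey points, and Cfp and C3ar1 lie on the 0 line.

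The genes with the most similar pattern were found by the root mean square difference in log2 CPM, each gene centred on its own mean, over the 4 libraries and 8397 genes that are not among the 9. For the mean of the 3 C1q chains these were Ctla2b (difference 0.0075), Stard9 (0.0078) and Btg2 (0.014), and 421 genes lay within 0.1. Ctla2b, for instance, was at 44.9 and 43.7 CPM against 33.3 and 33.1 CPM. For C3 they were Procr (0.032), the endothelial protein C receptor gene, Sod2 (0.037), the mitochondrial superoxide dismutase gene, and Tmem119 (0.037), and 35 genes lay within 0.1. Procr was at 31.4 and 30.8 CPM against 60.2 and 62.0 CPM. With 4 libraries in 2 groups this likeness mostly states a like size of the group difference.

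The rest of the complement system was read from 54 further gene names listed by role, of which 52 were found. C5, a name not found, is encoded by Hc, which was found, so the names are not all distinct genes. Of the 52 found, 25 passed the filter on low counts, 6 rose, 8 fell and 11 were not called. Their median log2 fold change was 0.06, beside -0.0046 over all genes tested, of which 20.7% were called.

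Among the genes listed with C1, the protease genes that were called moved opposite to the C1q chains. C1ra, the main C1r gene, was at 12.6 and 12.2 CPM under the WT label and 17.7 and 17.2 CPM under the anti-Act1 label (a log2 difference of 0.50, SE 0.09, edgeR adjusted p = 1.92e-05). C1rl, a related protease gene, was at 8.20 and 8.20 CPM against 12.4 and 11.9 CPM (0.57, SE 0.11, edgeR adjusted p = 4.81e-05). C1s1, the main C1s gene, rose from 0.743 and 0.922 CPM to 1.49 and 2.14 CPM (1.11, SE 0.29, edgeR adjusted p = 0.0036), a call that was lost without anti-Act1 replicate 2 (0.83, edgeR adjusted p = 0.149). Of the 7 tested genes of the C1 list, the 3 chains fell, these 3 protease genes rose, and C1s2, at 0.183 CPM or less, was not called. C1ra and C1s1 have near-identical copies, C1rb and C1s2, with which reads could be shared.

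In the lectin route, which recognizes sugars, 2 of 8 genes were tested. Masp1, a protease gene, rose from 2.97 and 3.43 CPM to 7.34 and 7.53 CPM (a log2 difference of 1.21, SE 0.14, edgeR adjusted p = 4.34e-09). Fcna, a ficolin gene, was at 9.57 and 10.3 CPM against 7.16 and 8.31 CPM (-0.36, SE 0.11, edgeR adjusted p = 0.018), a call lost without WT replicate 2 (-0.31, edgeR adjusted p = 0.138) and without anti-Act1 replicate 1 (-0.25, edgeR adjusted p = 0.246).

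Among convertase genes other than C3, Cfb and Cfp, the counts were low. C2 was at 2.97 and 2.04 CPM against 3.90 and 3.37 CPM (a log2 difference of 0.55, SE 0.19, edgeR adjusted p = 0.0319). That call was lost in 7 of 13 alternatives, among them the fits without WT replicate 2 (0.29, edgeR adjusted p = 0.429) and without anti-Act1 replicate 1 (0.44, edgeR adjusted p = 0.226). C4b had 32 and 21 counts under the WT label and 2 and 8 under the anti-Act1 label (-2.12, SE 0.69, edgeR adjusted p = 0.0212). It was not called without WT replicate 1 (-1.65, edgeR adjusted p = 0.232) or without anti-Act1 replicate 1 (-1.37, edgeR adjusted p = 0.340), and without anti-Act1 replicate 2, which leaves the library with 2 counts, its log2 fold change was -3.49. Its near-identical copy C4a was not called. Of the 7 terminal pathway genes found in the table only C8g was tested, and it was not called. Hc, which encodes C5, the precursor of C5a, was at 0 in all libraries together with C8a, C8b and C9.

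Of the inhibitors, Cd55, a membrane protein that speeds the decay of convertases, rose from 15 and 36 counts to 68 and 64 counts (a log2 difference of 1.66, SE 0.39, edgeR adjusted p = 0.00133). Without WT replicate 1 its log2 fold change was 1.26 and without WT replicate 2 it was 2.28, both called. Clu, which encodes clusterin, was called lower (-1.38, SE 0.49, edgeR adjusted p = 0.0353) at under 1 CPM in every library, a call that was lost whichever library was left out (-1.56 without WT replicate 1, -1.17 without WT replicate 2, and, with an anti-Act1 library omitted, -1.51 for replicate 1 and -1.27 for replicate 2) and with the replicate block (edgeR adjusted p = 0.0518). Cd46, Cd59a, Cd59b and Cr1l were not called.

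Of the complement receptors, the 11 tested included C5ar1 and C5ar2, which fell, and C3ar1, which was not called. Cd93, once described as a C1q receptor, fell from 415 and 452 CPM to 316 and 316 CPM (a log2 difference of -0.46, SE 0.05, edgeR adjusted p = 1.49e-09). Itgam, the α chain of CR3, fell from 1458 and 1545 CPM to 1188 and 1237 CPM (-0.31, SE 0.05, edgeR adjusted p = 3.96e-06). The β chain shared by CR3 and CR4, Itgb2, was at 866 and 876 CPM against 883 and 958 CPM and was not called. Itgax, the α chain of CR4, was at 31.9 and 33.8 CPM against 27.7 and 28.6 CPM (-0.23, SE 0.07, edgeR adjusted p = 0.0136). Its call was lost without WT replicate 2 (-0.18, edgeR adjusted p = 0.127), without anti-Act1 replicate 1 (-0.20, edgeR adjusted p = 0.154) and without anti-Act1 replicate 2 (-0.25, edgeR adjusted p = 0.0571). Vsig4, a macrophage receptor for C3b, had 27 and 27 counts against 12 and 1 (-1.79, SE 0.66, edgeR adjusted p = 0.0459), lost without WT replicate 1 (-1.67), without WT replicate 2 (-1.90) and without anti-Act1 replicate 2 (-0.98). Without anti-Act1 replicate 1, which leaves the library with 1 count, it was -4.26 (edgeR adjusted p = 0.0142). In all, 6 of the 11 receptor genes fell. The other 5, C3ar1, Itgb2, Calr, C1qbp and Lrp1, were not called, with log2 fold changes of -0.11 to 0.08, and Lrp1 was called lower when no composition normalization was applied (edgeR adjusted p = 0.043). With DESeq2, the test named in the study's methods, 6 of the 14 called genes outside the 9 lost their calls: Fcna (adjusted p = 0.0884), C2 (adjusted p = 0.162), C4b (adjusted p = 0.129), Clu (adjusted p = 0.143), Itgax (adjusted p = 0.0508) and Vsig4 (adjusted p = 0.215). Unfiltered limma on log2(FPKM + 1) lost the calls of C1s1, Fcna, C2, C4b, Itgax and Vsig4. Over these 14 genes, 7 were called in every alternative that gave a value, among them C1ra, C1rl, Masp1, Cd55, Itgam and Cd93.

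**Figure D5:**
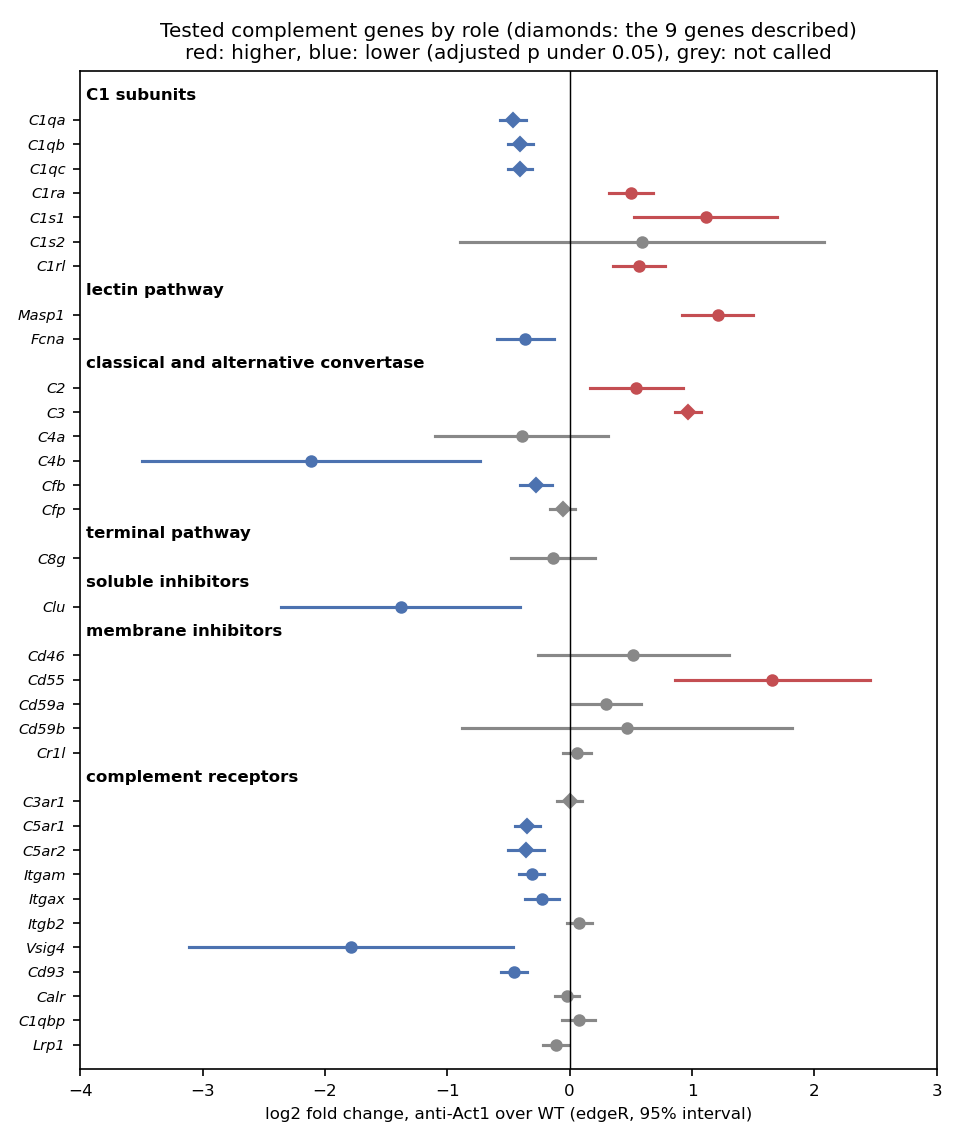
Log2 fold change, anti-Act1 label over WT label, with its 95% interval (edgeR) for complement genes that were tested, grouped by role (diamonds for the 9 genes described, circles for others, red higher, blue lower, grey not called). C1q chains lie left of 0 with C1ra, C1rl and C1s1 right of it, C3 lies right with Cfb left, and the 6 called receptors lie left of 0.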

How the data were processed

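RNA of 4 macrophage libraries, 2 per group, was sequenced by the authors as pairs of 150 bp reads from TRIzol RNA and an NEBNext Ultra kit. Alignment was with TopHat, and the authors deposited whole read counts per gene, not normalized. The submitters' notes name HTSeq 0.6.1, Bowtie 0.12.2 and both mm8 and mm10, without saying which build was used. The kit does not mark strand, so a gene and its antisense partner cannot be told apart. The deposited FPKM values equal these counts divided by gene length and column total. They were used for levels between genes and for alternatives.

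Counts were tested with edgeR 4.0.16 (R 4.3.3): TMM normalization, filterByExpr, condition as the only term, the quasi-likelihood test, and Benjamini-Hochberg adjustment over 12494 genes with a threshold of 0.05. CPM are counts divided by the TMM-adjusted library size. The numbers of replicates in the labels did not pair the libraries (correlation of deviations -0.03), and replicates differed by more than counting noise (chi-square per degree of freedom 10.4 and 7.22). The study calls them biological replicates. Floors of 3 counts cover counting error only. The 13 alternatives were DESeq2 1.42.0, edgeR with the size factors of DESeq2, edgeR with library totals alone, edgeR unfiltered, a minimum of 10 counts in all libraries, the replicate block, limma 3.58.1 with a trend on log2(FPKM + 1) or log2(FPKM + 0.1) at 1 FPKM or more, the former also unfiltered, and fits that omit each library. The main edgeR test, DESeq2, filtered limma on log2(FPKM + 1) and the replicate block were tried on simulated counts. The other alternatives were not.

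The 9 genes, the other lists and the motifs were chosen with earlier results of these data known. All 9 are named, as are called genes of the complement lists, Traf3ip2, counts of marker lists, and the 3 genes nearest to the C1q mean and to C3. GENCODE M21 was used for overlapping genes, and RefSeq (GRCm38.p6) for chromosomes, neighbours and promoters. The listed names C5 and Daf2 were not found, though Hc, which encodes C5, was. C1qa and Cfb had no promoter window. Some listed genes are counted with their list but not reported here.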

Additional observations from a re-analysis of the deposited data

How the results depend on the processing

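C3 was the 1 gene of the 9 called higher in all 13 alternatives, and C1qa, C1qb, C1qc and C5ar1 were called lower in all 13. The count of 6 called lower was 4 with unfiltered limma on log2(FPKM + 1), where C5ar2 (adjusted p = 0.0713) and Cfb (adjusted p = 0.0553) lost their calls, and 5 without anti-Act1 replicate 2, where Cfb lost its call. The log2 fold change ranged from 0.91 to 1.03 for C3, -0.52 to -0.41 for C1qa, -0.45 to -0.36 for C1qb, -0.43 to -0.40 for C1qc, -0.40 to -0.29 for C5ar1, -0.46 to -0.26 for C5ar2 and -0.33 to -0.23 for Cfb. Cfp, at -0.11 to -0.0024, was called in 0 of 13 alternatives, DESeq2 included.

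C3ar1 turned to 0.00050 with DESeq2's size factors and to 0.0014 with at least 10 counts in every library, and ran from -0.031 to 0.033 when libraries were left out, called in none of these. Of other genes not called, leaving out a library took C4a from -0.80 to 0.21, Calr from -0.043 to 0.0045, C8g from -0.32 to 0.022 and Cd59b from -0.26 to 0.99. The genes called over the whole table were 2586, against 1092 with unfiltered limma on log2(FPKM + 1), which tested 15495 genes, and 1671 to 2543 without 1 library, which leaves a group with 1 sample that is assumed to vary like the other group. The lowest count, 1671, came without anti-Act1 replicate 2, and that without anti-Act1 replicate 1 was 1712. The cause was not tested. With the replicate block 2406 genes were called, and of the complement genes only Clu lost its call. The median log2 fold change of all genes was lowest with limma on log2(FPKM + 0.1), at -0.031. Genes of a few CPM or less, such as C1s1, C4b, Cd55, Clu and Vsig4, are limited by their counts.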
